A study of Mus musculus with 4 samples.

Results

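Chromatin accessibility was examined at 10 genes of oxygen sensing and of its feedback, Hif1a, Epas1, Vhl, Egln1, Egln3, Hif1an, Bnip3, Ankrd37, Ndrg1 and Vegfa, in mouse bone mesenchymal stem cells (MSCs) kept at low or at atmospheric oxygen. Every ATAC-seq peak that overlapped one of these genes or the 10 kb on either side of it (GENCODE M21 gene models) was taken, which gave 85 of 128055 peaks. Of the 85 peaks, 11 were promoter peaks, reaching to less than 1 kb from where a protein-coding transcript of the gene starts, and 74 lay elsewhere in the span. Hif1a held 27 peaks, Ndrg1 12, Vegfa 11, Bnip3 8, Egln3 7, Epas1 6, Egln1 5, Ankrd37 4, Hif1an 3 and Vhl 2. Of the 74 other peaks, 7 lay at the start site of a neighbouring protein-coding gene, and those named below are identified as such.

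Cells sense oxygen through the hypoxia-inducible factors (HIFs). While oxygen is plentiful, prolyl hydroxylases (encoded by Egln1 and Egln3) mark the HIF alpha subunits (encoded by Hif1a and Epas1) for capture by the ubiquitin ligase component pVHL (encoded by Vhl), and the asparaginyl hydroxylase FIH (encoded by Hif1an) blocks the contact of the remaining protein with its coactivators. When oxygen falls, the alpha subunits persist, pair with ARNT and bind the letters ACGTG or GCGTG in the DNA of target genes such as Bnip3 (mitophagy), Ankrd37 (an ankyrin repeat protein), Ndrg1 (a stress response protein) and Vegfa (angiogenesis). Egln3 and, more weakly, Egln1 are themselves HIF targets, which closes a feedback loop. Marrow and bone hold less oxygen than air, so atmospheric culture gives these cells more oxygen than they meet in the animal.

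The 4 libraries were made from bone MSCs of C57BL/6N mice aged 3 to 5 months, with 2 libraries from cells in hypoxia (2% O2) and 2 from cells in normoxia (21% O2). No gene was deleted and no agent was added in either group, so oxygen level was the only difference in the labels. According to the study's methods the cells were grown out of bone in hypoxia, sorted as CD45-/Ter-119-/Sca-1+/CD140a+ and then either returned to hypoxia or shifted to normoxia, so that the normoxia cells had a hypoxic past. The labels describe culture in one or the other condition, with sorting on day 12. The study describes the libraries as independent experiments, but the labels do not say from which animals they came, so the p-values measure the spread between these libraries only. The labelled cell type was checked on its markers: all 6 MSC genes examined (Pdgfra, Ly6a, Prrx1, Twist1, Eng and Thy1) had a promoter peak. Of 4 blood genes only Spi1 had one, with 21.2 and 14.6 per kb in hypoxia and 11.2 and 18.6 per kb in normoxia, and there was none at Ptprc, Itgam or Hba-a1. Of 3 endothelial genes, Cdh5 had no promoter peak, while Tek had one at 34.1 per kb in hypoxia and 20.5 per kb in normoxia and Pecam1 one at 16.1 and 15.9 per kb (group means). Both, and also Spi1 with group means of 17.9 and 14.9 per kb, lay within the range of the strongest promoter peaks of the MSC genes. That range was 6.71 to 57.3 per kb in hypoxia and 8.03 to 27.3 per kb in normoxia.

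Library totals lay between 26680936 and 29965523 reads. Each value is the number of reads in a peak per 10000000 reads of the library, not divided by peak width. The libraries differed in the share of their reads that fell in nuclear peaks, at 49.2% and 53.2% (hypoxia) against 31.0% and 35.2% (normoxia), and in mitochondrial peaks, at 7.77% and 9.13% against 1.497% and 2.34%. Values as deposited are not adjusted for this share, and their median log2 fold change over all peaks was -0.44. The main comparison therefore scaled the libraries by relative log expression (RLE) size factors, which put the median over all peaks at -0.0040. Fold changes are given as log2 of value + 1, with normoxia over hypoxia, and a peak was called at a false discovery rate (FDR) under 0.01 in limma, adjusted over all 128055 peaks. The part of the read share in the results was not tested.

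To show the letters that HIF binds at these promoters, the 250 bases before the RefSeq start site (build GRCm38.p6, whose chromosomes are those of mm10) were read for the 8 genes matched in the RefSeq promoter table. Epas1 and Ndrg1 are named only. The HIF core letters ACGTG and GCGTG were searched on both strands, and overlapping matches were counted as 1 site. Capitals mark the matches in the 6 windows printed here 5′ to 3′ in the direction of the gene. The target genes Bnip3 and Ankrd37 come first, then Hif1a and the hydroxylase genes. The windows of Vhl and of the target gene Vegfa were read but are not printed. A link between the number of sites and the change in accessibility was not tested.
Bnip3 (chr7:138909507-138909756, minus strand): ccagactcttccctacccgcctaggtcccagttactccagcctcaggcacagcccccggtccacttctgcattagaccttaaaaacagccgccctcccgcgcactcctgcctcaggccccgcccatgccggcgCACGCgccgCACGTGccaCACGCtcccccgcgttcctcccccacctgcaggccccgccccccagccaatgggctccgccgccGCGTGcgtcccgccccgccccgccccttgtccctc
Ankrd37 (chr8:45999851-46000100, minus strand): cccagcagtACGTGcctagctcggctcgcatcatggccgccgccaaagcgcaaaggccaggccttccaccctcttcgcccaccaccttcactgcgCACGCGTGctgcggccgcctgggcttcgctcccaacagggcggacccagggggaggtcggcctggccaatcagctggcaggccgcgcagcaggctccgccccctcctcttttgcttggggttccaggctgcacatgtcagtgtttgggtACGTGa
Hif1a (chr12:73907617-73907866, plus strand): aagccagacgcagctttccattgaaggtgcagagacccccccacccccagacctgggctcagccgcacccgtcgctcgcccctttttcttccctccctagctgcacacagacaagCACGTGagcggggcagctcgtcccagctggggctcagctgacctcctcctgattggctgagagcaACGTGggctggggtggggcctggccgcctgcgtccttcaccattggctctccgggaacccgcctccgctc
Egln3 (chr12:54203875-54204124, minus strand): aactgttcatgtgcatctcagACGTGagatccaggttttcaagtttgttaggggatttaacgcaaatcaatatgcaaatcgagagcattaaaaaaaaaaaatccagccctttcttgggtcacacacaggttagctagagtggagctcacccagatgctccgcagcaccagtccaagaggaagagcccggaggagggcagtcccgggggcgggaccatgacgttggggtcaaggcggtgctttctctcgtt
Egln1 (chr8:124949255-124949504, minus strand): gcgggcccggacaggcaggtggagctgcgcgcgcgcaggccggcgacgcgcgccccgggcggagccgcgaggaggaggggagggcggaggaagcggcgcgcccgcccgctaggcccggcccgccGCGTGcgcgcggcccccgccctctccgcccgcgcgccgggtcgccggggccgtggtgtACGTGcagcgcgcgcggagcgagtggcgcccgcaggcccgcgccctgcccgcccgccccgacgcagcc
Hif1an (chr19:44562604-44562853, plus strand): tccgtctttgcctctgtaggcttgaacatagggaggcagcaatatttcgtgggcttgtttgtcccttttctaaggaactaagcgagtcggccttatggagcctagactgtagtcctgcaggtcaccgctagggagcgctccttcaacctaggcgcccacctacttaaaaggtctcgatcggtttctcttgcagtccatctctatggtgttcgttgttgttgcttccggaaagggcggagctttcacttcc
Bnip3 held 4 sites, whose first bases stood at -117, -108, -99 and -35 from the start site, where -1 is the base just before it. Ankrd37 held 3 sites, at -241, -155 and -6. Hif1a held 2 sites at -135 and -70, Egln1 held 2 at -126 and -68, and Egln3 held 1 at -229. The windows of Hif1an and Vhl and that of the outermost RefSeq start of Vegfa held 0, while a window at an internal Vegfa start held 2. Among all 32851 RefSeq windows of 250 bases, 38.6% held at least 1 site, 13.5% held at least 2 and 4.65% held at least 3. The windows of Bnip3 and Egln1 had a GC content of 72.4% and 86.0%, against a median of 52.4% over all windows. Each window lay wholly within the strongest promoter peak of its gene, so the matches are descriptions of open DNA and not of HIF binding, which was not measured.

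The promoters were compared first. As deposited, each normoxia library stood below each hypoxia library at all 11 promoter peaks of the 10 genes, as was the case at 86.1% of all promoter peaks. After RLE scaling, limma called 3 of the 11 lower in normoxia, those of the HIF targets Bnip3, Ankrd37 and Ndrg1, and 0 higher. That is 27.3%, beside 16.7% of all 17661 promoter peaks called lower and 0.442% called higher. The promoters of the HIF target Vegfa, of the oxygen sensors and of the HIF subunits were not called. Their log2 fold changes ran from -0.44 at Egln3 to 0.03 at Egln1, with -0.18 at Vegfa. The value at Egln3 was close to the -0.45 of the called Ndrg1 peak, so the calls do not separate targets from sensors. Across the 11 peaks the median was -0.37, against -0.27 over all promoter peaks.

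Levels of different genes were compared per kb of peak, over the strongest promoter peak of each gene. The widths of these peaks ran from 1200 bp at Hif1an to 12700 bp at Ndrg1, so the order depends on where the peaks end. Values not divided by width give another order, with Vegfa above Bnip3 in both groups. In hypoxia Bnip3 had the highest level, 71.3 ± 5.06 per kb (SD, n = 2), followed by Ankrd37 (52.9 ± 3.83), Hif1an (48.8 ± 4.04), Ndrg1 (38.9 ± 1.25) and Vhl (37.3 ± 1.21). Lower levels were found at Epas1 (35.2 ± 3.85), Hif1a (33.8 ± 0.13), Egln3 (32.5 ± 0.51), Egln1 (28.4 ± 0.59) and Vegfa (21.7 ± 0.26). The libraries of neighbours in this order overlapped for Ankrd37 and Hif1an, for Ndrg1 and Vhl, for Vhl and Epas1 and for Epas1 and Hif1a, and did not overlap for the other pairs. Over all promoter peaks of the genome, not only the strongest of each gene, the median stood at 30.0 per kb in hypoxia and 18.0 per kb in normoxia. In normoxia Vegfa was again the lowest, at 13.7 ± 1.33, and its libraries did not overlap those of any other gene. Bnip3 had the highest mean, 34.9 ± 9.71, but its libraries, at 28.0 and 41.8, lay on both sides of those of Hif1an, at 33.4 and 32.8. Egln1, at 20.9 ± 2.20, overlapped Vhl, Ndrg1 and Hif1a, so its place among them was not resolved.

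**Figure D1:**
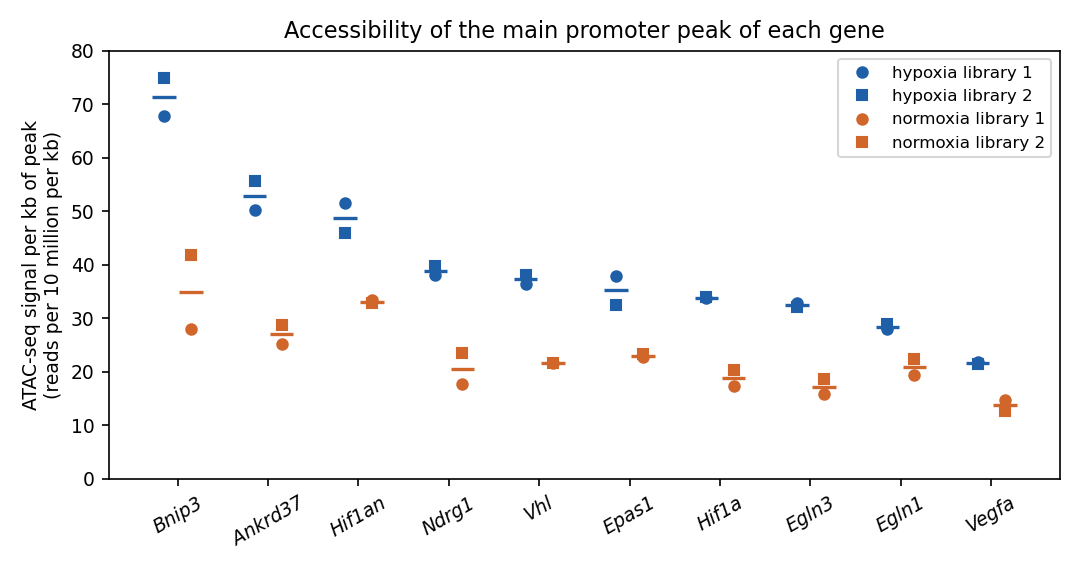
ATAC-seq signal per kb of the strongest promoter peak of each gene (reads per 10000000 library reads, per kb), with 1 point per library, circles for library 1 and squares for library 2, blue for hypoxia and orange for normoxia, and a bar at each group mean (n = 2). In all 10 genes both orange points lie under both blue points, with the widest gap at Bnip3 (71.3 against 34.9 per kb) and a narrow one at Egln1 (28.4 against 20.9 per kb).

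Among the HIF targets, Bnip3 encodes a mitochondrial protein that recruits the machinery of mitophagy. Its promoter peak (chr7:138908201-138910900, overlapping an exon) had values of 182.9 and 202.3 in hypoxia against 75.7 and 112.8 in normoxia. Both normoxia libraries were below both hypoxia libraries, and they differed from one another more than the hypoxia libraries did. The peak fell by 0.57 on the log2 scale (SE 0.13, limma FDR 0.00294), and without the first normoxia library the value was -0.35 and was not called. The intronic peak beside it (chr7:138905601-138908100), the strongest other peak of the gene, had 195.3 and 229.5 in hypoxia and 91.1 and 124.5 in normoxia, and fell by 0.51 (SE 0.12, limma FDR 0.00462), likewise with -0.34 and no call without that library. It thus kept step with the promoter, at 106.8% and 113.4% of the promoter value in hypoxia and 120.3% and 110.4% in normoxia. Another strong peak of the locus, upstream of the start (chr7:138918901-138921900) and outside the naming rule, had 155.0 and 175.4 against 80.96 and 96.1 (log2 fold change -0.42, limma FDR 0.0181) and was not called.

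Ankrd37, a gene strongly induced by HIF-1, showed the same order of libraries. Its promoter peak (chr8:45998201-46001100, overlapping an exon) had values of 145.4 and 161.1 in hypoxia and 73.1 and 83.4 in normoxia, without overlap. It fell by 0.49 on the log2 scale (SE 0.12, limma FDR 0.00743), and by 0.45 without the first normoxia library, where it was not called. The same peak lies within 1 kb of a start site of Lrp2bp, which runs next to Ankrd37, so the signal cannot be given to either gene alone. A peak upstream of Ankrd37 (chr8:46010201-46011900), which lies at another Lrp2bp start, had 35.0 and 34.3 against 15.4 and 14.3 (log2 fold change -0.71, limma FDR 0.0191). The strongest peak away from the promoter, downstream of the gene (chr8:45986101-45987400), had 34.3 and 41.8 against 21.4 and 26.0 (log2 fold change -0.20, limma FDR 0.518).

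Ndrg1 carried the widest promoter peak of the 10 genes, 12700 bp that take in several start sites (chr15:66961401-66974100). Its values were 482.7 and 505.2 in hypoxia against 224.9 and 298.3 in normoxia, and it fell by 0.45 on the log2 scale (SE 0.098, limma FDR 0.00221). Inside the gene the libraries were ordered differently. The strongest other peak, over an exon (chr15:66942001-66944700), had 38.6 and 36.7 in hypoxia and 35.2 and 41.4 in normoxia as deposited, where the groups overlapped, and its scaled log2 fold change was 0.49 (limma FDR 0.052). Relative to the promoter of its own library, this exonic peak stood at 7.99% and 7.27% in hypoxia and at 15.7% and 13.9% in normoxia. All peaks of the genome were also split into deciles by mean value. The median log2 fold change was -0.044 in the decile of this peak and -0.33 in the strongest decile, that of the promoter. Every weaker decile had a higher median than the strongest, except the weakest of all, at -0.48.

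Vegfa, the angiogenic growth factor and a classical HIF target, was not called at any of its 11 peaks. Its promoter peak, 9700 bp wide (chr17:46024301-46034000), had values of 212.0 and 208.4 in hypoxia and 142.0 and 123.8 in normoxia. After scaling the groups overlapped, and the log2 fold change was -0.18 (SE 0.12, limma FDR 0.316). It rested on the normoxia libraries, with -0.34 without the first (limma FDR 0.0395) and -0.02 without the second, and was called in neither case. A group of 7 touching peaks lay downstream of the gene over 7900 bp, and its strongest member (chr17:46009701-46011100) had 54.8 and 48.6 against 27.4 and 22.7 (log2 fold change -0.56, limma FDR 0.0369). In that peak both normoxia libraries were below both hypoxia libraries before and after scaling.

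The HIF subunit genes came next. Hif1a encodes the alpha subunit found in nearly all cells, and its main promoter peak (chr12:73904501-73912400) had values of 266.5 and 267.9 in hypoxia against 136.8 and 160.9 in normoxia. The groups did not overlap after scaling either, but the log2 fold change of -0.37 (SE 0.11) did not pass the threshold (limma FDR 0.0193). A weaker promoter peak at the other Hif1a start site (chr12:73901001-73901700) had 19.5 and 29.9 against 14.2 and 11.7 (log2 fold change -0.40, limma FDR 0.269). Epas1 encodes HIF-2 alpha, the subunit with the narrower range of tissues. Its promoter peak (chr17:86752701-86756400) had 140.5 and 120.4 in hypoxia and 84.0 and 86.1 in normoxia, and the scaled groups overlapped (log2 fold change -0.13, SE 0.13, limma FDR 0.541). The strongest other Epas1 peak, in an intron (chr17:86769201-86771000), had 56.3 and 53.7 against 30.4 and 26.4 (log2 fold change -0.47, limma FDR 0.0651). All 6 Epas1 peaks were lower in both normoxia libraries as deposited (beside 59.5% of all peaks). After scaling 1 was lower in both (beside 29.6%) and 1 was higher in both (beside 27.4%).

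Of the genes that restrain HIF, Egln1 and Egln3 encode the prolyl hydroxylases PHD2 and PHD3. The Egln1 promoter peak (chr8:124946701-124950400) had values of 103.7 and 106.8 in hypoxia and 71.6 and 83.1 in normoxia. Scaled, the groups overlapped and the log2 fold change was 0.03 (SE 0.13, limma FDR 0.907), the highest of the 11 promoter peaks. The strongest Egln1 peak was not the promoter but a 6100-bp peak in an intron (chr8:124921801-124927900), with 285.9 and 302.9 against 169.0 and 192.2 (log2 fold change -0.23, limma FDR 0.133). It held 275.8% and 283.8% of the promoter value in hypoxia and 236.1% and 231.3% in normoxia. A weak intronic peak close to it (chr8:124918801-124920000) had 11.3 and 10.2 in hypoxia and 16.1 and 9.68 in normoxia (log2 fold change 0.64, limma FDR 0.126). That value was 0.25 without the first normoxia library and 1.05 without the second (limma FDR 0.0199), not called in either case.

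At Egln3 the promoter and an intronic peak had fold changes of opposite sign, and neither was called. The promoter peak (chr12:54202601-54205600) had values of 98.7 and 96.6 in hypoxia and 47.6 and 55.7 in normoxia, without overlap (log2 fold change -0.44, SE 0.14, limma FDR 0.032). A weak peak in an intron (chr12:54197501-54198700) had 7.08 and 9.18 in hypoxia and 11.99 and 13.3 in normoxia. It was the only peak of the 85 with each normoxia library above each hypoxia library as deposited (1.18%, beside 6.94% of all peaks). Its log2 fold change was 1.03 (SE 0.28, limma FDR 0.013), short of the threshold, and it rested on 20 and 27 reads in hypoxia and 32 and 40 in normoxia. Relative to the Egln3 promoter of the same library it stood at 7.17% and 9.51% in hypoxia and at 25.2% and 23.95% in normoxia. Over all peaks, the median log2 fold change was 0.22 in the strength decile of this weak peak and -0.165 in that of the promoter. The strongest other Egln3 peak, also intronic (chr12:54191201-54192800), had 72.5 and 69.7 against 43.9 and 44.1 (log2 fold change -0.21, limma FDR 0.372).

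No peak in the spans of Vhl and Hif1an was called. Vhl encodes the substrate receptor that binds hydroxylated HIF alpha, and Hif1an the asparaginyl hydroxylase. The Vhl promoter peak (chr6:113623301-113625900) had values of 94.8 and 99.3 in hypoxia and 56.2 and 56.1 in normoxia (log2 fold change -0.31, SE 0.14, limma FDR 0.133), and the groups stayed apart after scaling. The other peak of the span lay at the start of Irak2, a signalling kinase gene of innate immunity (chr6:113638001-113639000), and had 76.8 and 75.8 against 43.5 and 45.1 (log2 fold change -0.30, limma FDR 0.172). The Hif1an promoter peak (chr19:44562201-44563400) had 61.9 and 55.1 against 40.1 and 39.4, and the scaled groups overlapped (log2 fold change -0.08, SE 0.16, limma FDR 0.803). The peak upstream of Hif1an lay at the start of Ndufb8, a gene of respiratory complex I (chr19:44554201-44555900), with 39.6 and 38.8 against 24.4 and 22.7 (log2 fold change -0.25, limma FDR 0.397). The strongest other peak, downstream of Hif1an (chr19:44581001-44584600), had 37.9 and 35.0 against 31.1 and 27.0 (log2 fold change 0.15, limma FDR 0.649).

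Since the scaling between libraries sets the size of these fold changes, the 10 main promoter peaks were also expressed as shares of their own sum within each library, which needs no scaling. The share of Egln1 was 5.80% and 5.86% in hypoxia against 7.52% and 7.56% in normoxia. That of Hif1an was 3.46% and 3.02% against 4.21% and 3.58%. At these 2 genes both normoxia libraries stood above both hypoxia libraries, by a small margin at Hif1an. Shares were smaller in both normoxia libraries for the third hydroxylase gene, Egln3 (5.52% and 5.30% against 5.00% and 5.07%), for Ankrd37 (8.13% and 8.84% against 7.68% and 7.59%) and, by a small margin, for Hif1a (14.9% and 14.7% against 14.4% and 14.6%). The libraries of the groups overlapped for the other 5, among them Bnip3 (10.2% and 11.1% against 7.95% and 10.3%) and Ndrg1 (26.98% and 27.7% against 23.6% and 27.1%), whose normoxia libraries stood apart from one another. The shares of a library add up to the whole, so a larger share at any gene goes with smaller shares at others. With 2 libraries against 2 an exact permutation test cannot go below p = 0.333. Orders without overlap are therefore common even where groups do not differ, and these orders are descriptions.

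**Figure D2:**
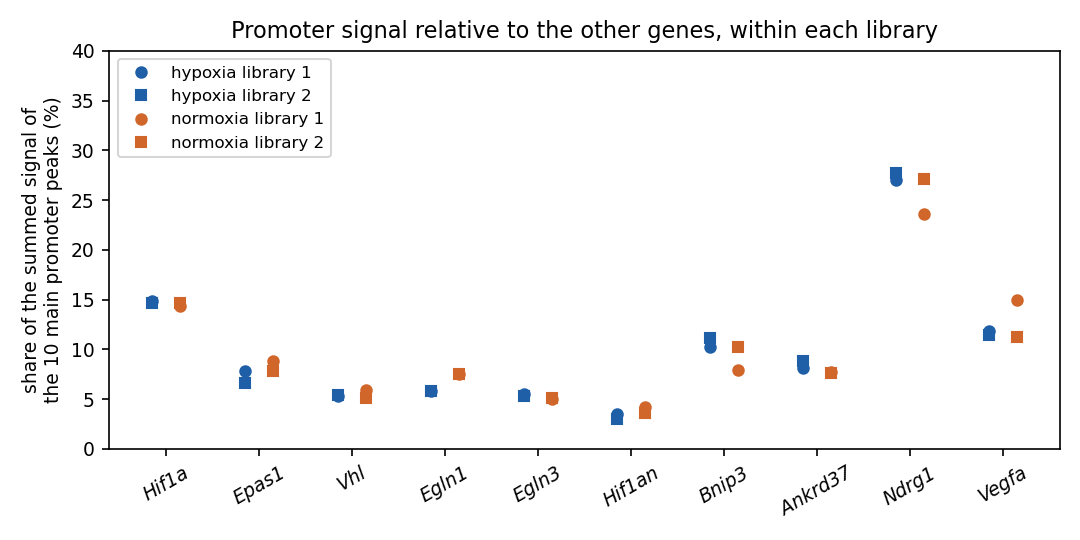
Share (%) that each gene takes of the summed signal of the 10 main promoter peaks in each library, with circles for library 1 and squares for library 2, blue for hypoxia and orange for normoxia. The orange points lie above the blue ones at Egln1 (7.52% and 7.56% against 5.80% and 5.86%) and Hif1an, below them at Hif1a, Egln3 and Ankrd37, and among or on both sides of them at the other 5 genes.

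The peaks outside the promoters were then examined. Of the 74, limma called 4 lower in normoxia (5.41%, beside 2.64% of all other peaks) and 0 higher (beside 1.98%), namely the Bnip3 intronic peak and 3 peaks of Hif1a. Over all 85 peaks this makes 7 lower (8.24%, beside 4.57% of all peaks) and 0 higher (beside 1.77%). At an unadjusted p under 0.05, 31 of the 85 were lower (36.5%, beside 16.8% of all peaks) and 3 higher (3.53%, beside 12.5%) in limma. By its FDR, edgeR on the recovered reads called 8 lower (beside 5.70% of all peaks) and 1, the weak Egln3 intronic peak, higher (beside 2.54%). The median log2 fold change of the 74 was -0.30, against 0.05 over all other peaks. The 2 classes differ, since the 74 include 7 peaks at the start of a neighbouring protein-coding gene. The other peaks of the whole series leave out peaks at any such start. These counts include 20 peaks that the peak caller had assigned to hypoxia only, from the same libraries, so that they had to be low in normoxia. Among the peaks assigned to both groups, 2 of 54 outside the promoters were called lower (3.70%, beside 2.26%) and 0 higher (beside 2.12%), with a median log2 fold change of -0.20 against 0.08 over all such peaks. With the promoters added, 5 of 65 were called lower (7.69%, beside 4.30%) and 0 higher (beside 1.89%). Each normoxia library stood below each hypoxia library in 72 of the 85 peaks as deposited (84.7%, beside 59.5% of all peaks) and in 48 after scaling (56.5%, beside 29.6%), and above them in 9 after scaling (10.6%, beside 27.4%). Of the 65 peaks assigned to both groups it stood below in 54 as deposited (83.1%, beside 58.1%) and in 30 after scaling (46.2%, beside 26.5%). Strong peaks are called more often than weak ones, and in the strongest decile of peaks by mean value 5 of 12 peaks of these genes were called lower, where 28.4% of all peaks were.

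**Figure D3:**
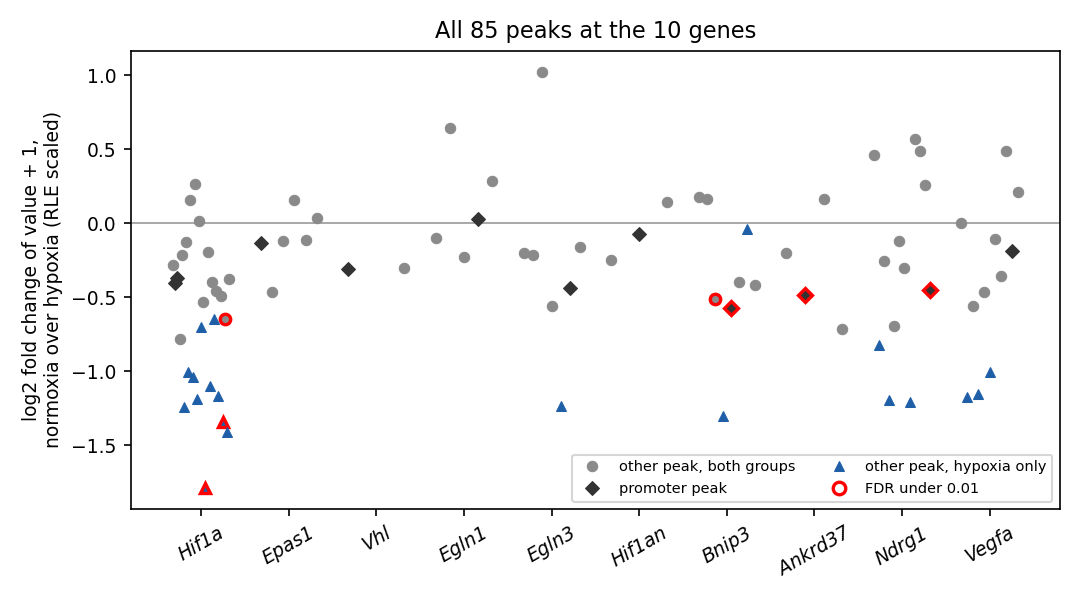
Scaled log2 fold change of value + 1, normoxia over hypoxia, for each of the 85 peaks, in genomic order within each gene. Black diamonds are promoter peaks, grey circles other peaks assigned to both groups, blue triangles other peaks assigned to hypoxia only, and a red outline marks the 7 peaks at an FDR under 0.01, all below 0; the highest point is the uncalled Egln3 intronic peak at 1.03.

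Open chromatin over the downstream part of Hif1a was divided into many adjoining peaks. The peak caller had assigned each peak to both groups or to 1 of them, and 20 of the 85 peaks were assigned to hypoxia only (23.5%, beside 6.84% of all peaks), 65 to both and 0 to normoxia only. None of the 11 promoter peaks was assigned to hypoxia only, and 11 of the 20 lay in Hif1a. These peaks were narrow, with a median width of 300 bp (100 to 1200 bp) against 1600 bp for the 65 shared peaks. All 20 touched a neighbouring peak and 18 did so on both sides, so they adjoined longer open stretches. Touching is usual for such peaks, since 97.4% of all hypoxia-only peaks did so. As the assignment uses the same libraries, the lower normoxia values of these 20 peaks are no independent result.

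From the middle of the gene to beyond its end, Hif1a carried an unbroken run of 22 touching peaks over 28900 bp (chr12:73930401-73959300), 11 of them hypoxia-only and alternating with 11 shared ones. Only 4 of the 7132 runs of touching peaks in the genome had 22 or more, and the longest had 30. The summed signal of the run was 446 and 542 in hypoxia against 239 and 215 in normoxia. All 3 called Hif1a peaks lay in this run and overlap the gene model Gm49321, so their signal cannot be given to Hif1a alone. The strongest, downstream of the gene's last exon (chr12:73949601-73956800), had values of 252.0 and 289.7 in hypoxia and 120.3 and 127.1 in normoxia and fell by 0.64 on the log2 scale (SE 0.11, limma FDR 0.000198). This 7200-bp peak and the hypoxia-only peak before it lie within 1 kb of a start of Gm15283, a gene model that is not protein-coding. The 7200-bp peak was about as strong as the promoter, at 94.6% and 108.1% of the main promoter value in hypoxia and 87.9% and 79.0% in normoxia. The hypoxia-only peak that touches it (chr12:73948401-73949600) had 17.3 and 20.1 against 5.62 and 4.00 and fell by 1.34 (SE 0.30, limma FDR 0.00232), with -1.08 and no call without the second normoxia library. The last of the 3, over an exon (chr12:73941801-73942600), was also hypoxia-only and had 11.7 and 8.84 against 3.75 and 0.33. It fell by 1.79 (SE 0.47, limma FDR 0.00879), on 33 and 26 reads in hypoxia and 10 and 1 in normoxia. Without the second normoxia library its value was -0.77 and without the first -2.86, and the former was not called. In the run the median log2 fold change was -1.17 in the hypoxia-only and -0.38 in the shared peaks. The falls of its hypoxia-only peaks, the called ones included, are no independent result, as the assignment used the same libraries.

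**Figure D4:**
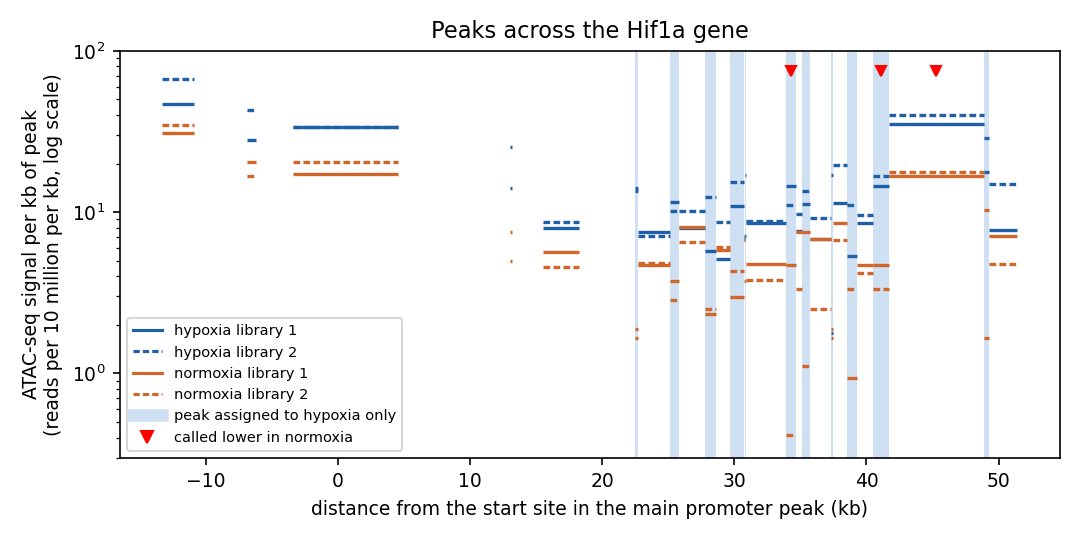
ATAC-seq signal per kb of each of the 27 Hif1a peaks (log scale), drawn as bars over the extent of the peak against the distance in kb from the start site in the main promoter peak, in blue for hypoxia and orange for normoxia, solid for library 1 and dashed for library 2. Pale blue bands mark the 11 peaks assigned to hypoxia only and red triangles the 3 called lower, all in the touching run of 22 peaks; a single value of 0 in a normoxia library is not drawn on the log axis.

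Summed over all peaks of a gene, the deposited signal in normoxia was between 0.509 of the hypoxia level at Hif1a and 0.688 at Hif1an. The ratio was 0.534 at Bnip3, 0.546 at Ankrd37, 0.579 at Vhl, 0.587 at Ndrg1, 0.605 at Egln3, 0.612 at Vegfa, 0.658 at Epas1 and 0.676 at Egln1. After RLE scaling the same ratios ran from 0.712 at Hif1a and 0.741 at Bnip3 to 0.941 at Egln1 and 0.96 at Hif1an. These sums include the hypoxia-only peaks, which had to be low in normoxia, so the order of the genes depends partly on them. Hif1a held 11 such peaks, Ndrg1 and Vegfa 3 each, Bnip3 2, Egln3 1 and the other genes 0. The 85 peaks, which cover 159300 bp, held 0.0410% and 0.0437% of the library total in hypoxia against 0.0235% and 0.0258% in normoxia. The difference was -0.0177 percentage points (0.0424% ± 0.0019 against 0.0246% ± 0.0016, SD, n = 2 each), and its p of 0.333 is the lowest that a two-sided exact permutation test can give here. As a share of the reads in all peaks they held 0.0719% and 0.0701% in hypoxia and 0.0721% and 0.0687% in normoxia, where the groups overlapped (two-sided exact permutation test, p = 1.0).

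The calls at the 10 genes depended on the libraries and on how they were scaled. On values as deposited 35 of the 85 were lower (beside 24.0% of all peaks), and with equal totals over all peaks 0 were lower (beside 0.842%) and 2, the weak Egln3 and the exonic Ndrg1 peak, were higher (beside 6.87%). Cyclic loess, which removes any trend of the fold change with peak strength, gave 3 lower calls in place of 7 (beside 1.31%), all at hypoxia-only peaks of Hif1a, and 0 at promoters (beside 2.05%), and the log2 fold changes of the promoters were then -0.27 at Bnip3, -0.22 at Ankrd37 and 0.0089 at Ndrg1. Without the first or without the second hypoxia library limma called no peak of the whole series in either direction. A group of 1 library is then assumed to vary like the other. Without the first normoxia library 1 promoter, that of Ndrg1, was called lower (beside 12.4% of all promoter peaks), and without the second 4 were, with that of Hif1a added (beside 24.6%).

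The other genes of the pathway were taken from a pair of lists. Among 14 further oxygen sensing genes, which encode HIF partners, hydroxylases, parts of the ubiquitin ligase and coactivators, limma called 3 of 18 promoter peaks lower in normoxia (16.7%, the same as the 16.7% of all promoter peaks) and 0 higher, and the median log2 fold change was -0.17. The peak of Eloc, an adaptor of the pVHL ligase (chr1:16655901-16657800), had values of 279.2 and 291.4 in hypoxia and 108.7 and 130.1 in normoxia and fell by 0.78 (SE 0.11, limma FDR 2.1e-05). Cited2, whose product competes with HIF for its coactivators (chr10:17721001-17724700), had 201.7 and 219.3 against 92.95 and 97.8 and fell by 0.66 (SE 0.12, limma FDR 0.000298). Siah2, a ubiquitin ligase that acts on prolyl hydroxylases (chr3:58686001-58693900), had 264.7 and 289.0 against 134.9 and 163.9 and fell by 0.41 (SE 0.11, limma FDR 0.00859). The promoter peaks of the HIF partners Arnt and Arnt2, of the alpha subunit gene Hif3a and of the prolyl hydroxylase gene Egln2 were not called, with log2 fold changes of -0.20, -0.12, 0.0097 (the stronger of 2 Hif3a peaks) and -0.17.

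Among 15 further HIF targets outside glycolysis, 5 of 18 promoter peaks were called lower (27.8%, beside 16.7%) and 0 higher, in 4 genes, with a median log2 fold change of -0.27, equal at this rounding to that of all promoter peaks. Stc2, a secreted glycoprotein gene (chr11:31368101-31371600), had 139.1 and 137.7 against 49.1 and 67.1 and fell by 0.78 (SE 0.14, limma FDR 0.000272). Plin2, of lipid droplets, fell by 0.65, and Bhlhe40, a transcriptional repressor, fell by 0.64. Mxi1, an antagonist of MYC, fell by 0.56 and 0.54 at its 2 called promoter peaks. Adm, Ddit4, Bnip3l and Higd1a were not called, with log2 fold changes of -0.0040, -0.22, -0.34 and -0.27. Bnip3l encodes the closest relative of BNIP3, and its promoter peak had 280.6 and 309.4 against 152.5 and 181.5 (limma FDR 0.0241). Under cyclic loess 1 peak of each list was called lower, that of Eloc and that of Stc2 (beside 2.05% of all promoter peaks), and 1 of the first list, that of the Elongin B gene Elob, was called higher (beside 1.26%).

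**Figure D5:**
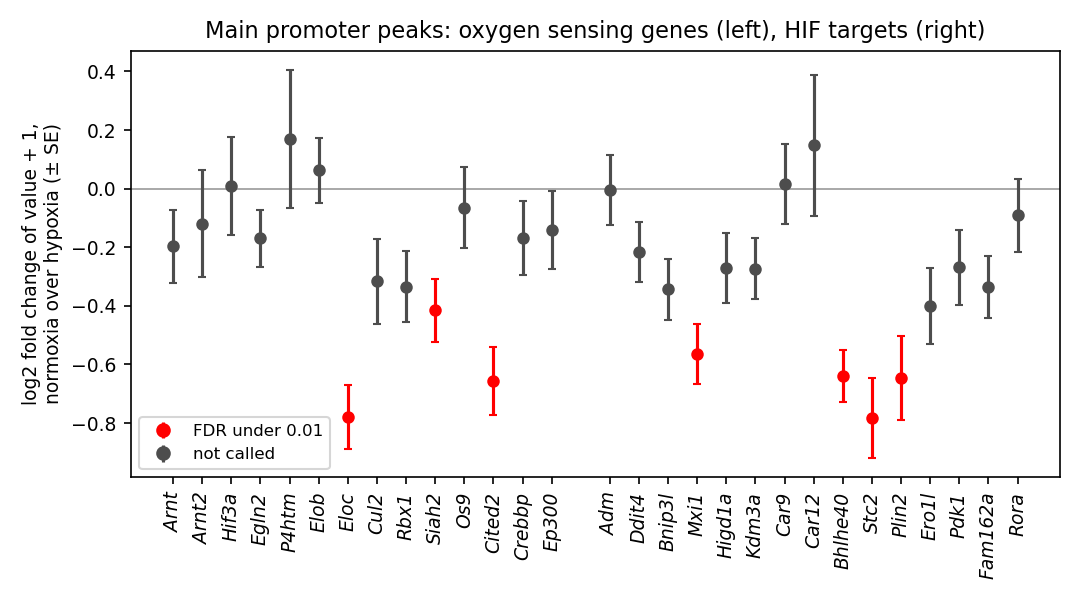
Scaled log2 fold change of value + 1 (± SE from limma) of the strongest promoter peak of each of the 14 further oxygen sensing genes (left) and 15 further HIF targets (right). Red points passed an FDR under 0.01 and all lie below 0, from Stc2 and Eloc at -0.78 to Siah2 at -0.41, and grey points were not called.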

How the data were processed

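Per the labels and the study's methods, ATAC-seq libraries of sorted mouse bone MSCs in hypoxia and normoxia were aligned to mm10 with Bowtie2 in local mode, duplicates were removed with Picard, and the authors ran chromstaR once, in differential mode, for a joint peak set and its value in each library. The authors call these deposited values RPKM, but they are a signal that was not divided by peak width: 100% of values in each library are whole reads (within 0.01 read) times 10000000 over the library total. It is unknown if these reads are fragments, and a read may enter neighbouring bins, so no counting interval was given. The recovered totals were 28259470 and 29413803 (hypoxia) and 26680936 and 29965523 (normoxia), with 43, 48, 33 and 40 reads in the median peak, so weak peaks are imprecise.

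Deposited values were divided by RLE size factors (1.13, 1.23, 0.81 and 0.886) and log2(value + 1) was tested with limma 3.58.1 in R 4.3.3 (lmFit, eBayes with trend and robust, two-sided, Benjamini-Hochberg over 128055 peaks, no filter on low values), since the study's edgeR test is made for counts. A pseudocount of 1 understates the change of low peaks. On simulated data with 200 of 128055 peaks changed, limma recovered 91.4% of 4-fold and 46.7% of 2-fold changes with 1 false call, and made 0 calls with no change. The changed peaks were drawn only from peaks with more reads, up or down at random. No trend of the change with peak strength was simulated. These rates therefore do not hold for weak peaks or under such a trend. Exact permutation tests used scipy 1.17.1.

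The genes and lists were chosen with earlier results of these data known. For each gene the text names the promoter peak with the highest mean value, the other peaks with the highest mean value and with the lowest p-value, and every called peak. From the lists of further genes it names those with a called promoter peak and up to 4 others in list order. Some genes of these lists are not reported here and were left out of the counts. Alternatives were other scalings, pseudocounts, filters, thresholds, variance models, edgeR 4.0.16 and DESeq2 1.42.0 on recovered reads, each library left out, a replicate block, and other spans around the genes. Promoter sequences are from RefSeq. RNA levels and HIF binding were not analysed here.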

Additional observations from a re-analysis of the deposited data

How the results depend on the processing

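With 2 libraries per group every call rests on few degrees of freedom, and peaks of few reads are imprecise. The 7 lower calls became 35 on values as deposited, 41 with library totals without mitochondrial peaks (beside 30.1% of all peaks), 0 with equal totals over all peaks, 1 under quantile normalization (beside 0.720%) and 3 under cyclic loess. The cause was not tested. They became 0 with eBayes without trend and robust estimation (beside 0.00% of all peaks) and 4 without robust estimation (beside 3.45%). In edgeR on the deposited values they became 4 (beside 3.42%). DESeq2 called 4 of the 17 of the 85 that had an adjusted p (23.5%, beside 15.8% of the 21295 peaks with one). At an FDR under 0.05 they became 16 (beside 9.68%). Leaving out 1 library also changed the calls, as given above. With the replicate block they were 11 (beside 6.61%), among them all 7, and 1 peak, the weak Egln3 intronic one, was higher (beside 3.05%); deviations from the group means correlated at 0.011 between same-numbered libraries, so the numbers were not taken as pairs. The 0 higher calls became 2 with equal totals (beside 6.87%) and 1 with a mean value of at least 5 (beside 2.64%), in edgeR on recovered reads with RLE (beside 2.54%) or TMM factors (beside 2.85%) and at an FDR under 0.05 (beside 5.38%). The 3 calls of the further oxygen sensing genes became 9 as deposited, 11 without mitochondrial peaks, 1 each under equal totals, quantile and loess, 0 without trend and robust estimation, and 0 to 3 with a library left out. The 5 of the further HIF targets became 14, 15, 2, 0, 1 and 0 in the same settings, 0 to 7 with a library left out, and 8 at an FDR under 0.05. Of all promoter peaks, 60.6%, 67.6%, 2.30%, 1.18%, 2.05% and 0.00% were called lower in these settings and 30.1% at an FDR under 0.05, so that the 9 and 11 of 18 oxygen sensing peaks lay under the background. The median log2 fold change of the promoter peaks, -0.37, was -0.84 as deposited, -0.94 without mitochondrial peaks, -0.079 under equal totals, -0.073 under quantile and 0.0011 under loess, and -0.34 to -0.24 with a library left out. That of the other peaks, -0.30, was -0.76, -0.86 and -0.017 under the first 3, -0.22 with a pseudocount of 5 or a mean value of at least 5, -0.12 with 50 kb on each side, and -0.37 to -0.26 with a library left out. The share difference of -0.0177 points of the library total was -0.00059 points of the reads in all peaks.

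Some named peaks turned direction. Under equal totals, quantile and loess the log2 fold changes were 0.16, 0.14 and 0.13 at the Epas1 promoter, 0.062, 0.14 and 0.16 at the Egln1 intronic peak of 6100 bp, 0.21, 0.030 and 0.043 at the Hif1an promoter and 0.10, 0.16 and 0.16 at the Vegfa promoter. Under equal totals alone they were 0.075 at the strongest other Egln3 peak, 0.032 at the Ndufb8 start and 0.083 at the downstream Ankrd37 peak. Under loess alone they were 0.0011 at the Hif1a and 0.0089 at the Ndrg1 promoter. The Egln1 promoter stood at -0.44 as deposited and -0.54 without mitochondrial peaks, the Hif1an downstream peak at -0.32 and -0.42, and the Ndrg1 exonic peak at -0.077 without mitochondrial peaks. With 1 library left out, the range was -0.31 to 0.026 at the Epas1 promoter, -0.011 to 0.079 at the Egln1 promoter, -0.22 to 0.055 at the Hif1an promoter and -0.0095 to 0.31 at the Hif1an downstream peak.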
